A study of Mus musculus with 24 samples.

Results

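The calcium reabsorption genes are 10 mouse genes that carry or regulate the movement of calcium across the cells of the distal nephron. They are the channel genes Trpv5 and Trpv6, the calbindin genes Calb1 and S100g, the exchanger gene Slc8a1, the pump genes Atp2b1 and Atp2b4, and the regulator genes Kl, Vdr and Casr. They were chosen by name, and every probe set (a group of short probes read as 1 value) that the platform table pairs with 1 gene symbol was taken. This gave 20 probe sets for 9 of the 10 genes, among 18194 genes with such a probe set. Trpv5 was not analysed here. Where a gene had several, the main value came from the probe set that was brightest on average over the 24 arrays.

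RNA came from 2 tubule segments that were microdissected from the collagenase-treated left kidneys of male C57BL/6J mice, with no genetic change or drug in any group. The first segment was the distal convoluted tubule together with the connecting tubule (DCT/CNT), and the second was the cortical collecting duct (CCD). Mice had 12 h of light a day, followed by 12 h of darkness, with 2 weeks of adaptation in all groups. They were sampled at 6 zeitgeber times, ZT0 (lights on), ZT4, ZT8, ZT12 (lights off), ZT16 and ZT20. Each of the 12 groups had 2 arrays, and each array carried a pool that drew equally on RNA from 5 animals per time. No age was stated, and nothing states whether the 2 pools of a time hold the same animals, so p-values may not measure the spread between animals. For segment levels they rest on the spread between the 2 pools of a group. For rhythms they rest on the spread of pools around fitted 24 h cosines, which includes departures of group means from a cosine. It is also not stated whether both segments came from the same animals, or whether normalisation took DCT/CNT and CCD arrays together, which bears on every difference between segments. An array holds no single cells: fewer cells of a type and less RNA per cell cannot be told apart.

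Calcium that is not taken up earlier in the nephron is recovered in the DCT and CNT by a path through the cell. It enters from the urine through TRPV5 and TRPV6 channels, is carried across the cytosol by the calbindins, and leaves toward the blood through the sodium-calcium exchanger NCX1 and plasma membrane calcium pumps. Active vitamin D acts on this path through its nuclear receptor, klotho is a membrane protein that serves as co-receptor for the hormone FGF23 and helps to hold TRPV5 at the cell surface, and the calcium-sensing receptor reports extracellular calcium. The comparisons ask whether these transcripts change over the day in either segment and whether the segments differ.

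The segment labels were checked against marker genes. Slc12a3, the thiazide-sensitive cotransporter of the DCT, averaged 10.77 ± 1.24 log2 units in DCT/CNT and 5.28 ± 0.48 in CCD (SD, n = 12 each). Aqp2, the water channel of principal cells, averaged 7.95 ± 0.15 in DCT/CNT and 10.25 ± 0.20 in CCD. Both segments held signal of a 7-gene principal cell list and an 8-gene intercalated cell list. All genes of a 4-gene DCT list were above a background level in DCT/CNT, and 3 of the 4 were in CCD. That level, under which 95% of 80 olfactory and vomeronasal receptor probe sets stay, was 4.95 in CCD, where Pvalb averaged 4.77. The DCT list varied most within DCT/CNT, where its mean per array ran from 7.92 to 10.16 (median 9.42), against 5.69 to 6.47 in CCD. The low DCT/CNT arrays of that list were both ZT8 pools (7.99 and 8.12), ZT0 pool 2 (8.22) and ZT16 pool 1 (7.92). The 5-gene thick ascending limb list ran from 7.09 to 8.30 in DCT/CNT and from 6.29 to 8.10 in CCD, and the 14-gene proximal tubule list from 6.88 to 8.55 in DCT/CNT and from 6.90 to 8.59 in CCD. The 2 pools of a group had Pearson's r of 0.988 to 0.995 with each other over genes, which are not independent replicates.

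**Figure D1:**
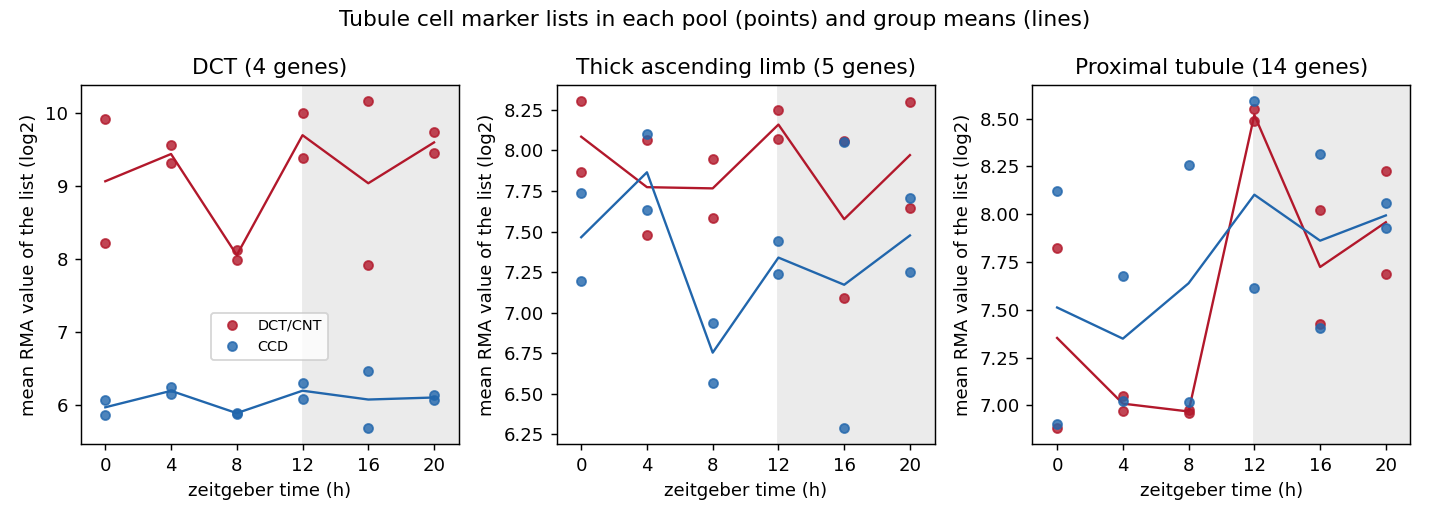
Mean log2 value of tubule cell marker lists (y axis) in each pool (points) and group (lines) against zeitgeber time in hours (x axis), with the dark phase shaded. The DCT list sits between 7.92 and 10.16 in DCT/CNT and between 5.69 and 6.47 in CCD, and in DCT/CNT it is low in both ZT8 pools.

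A stretch of the 5′ flank is shown for the 3 genes with the smallest adjusted p for a daily rhythm in DCT/CNT, Vdr, Slc8a1 and Kl, since their fitted peaks lay between ZT 20.4 and ZT 23.3. Each is the 250 bases just before the annotated transcript start, 5′ to 3′ on the gene's strand, from RefSeq (build GRCm38.p6). Vdr lies on the minus strand at chr15:97908297-97908546, Slc8a1 on the minus strand at chr17:81738388-81738637, and Kl on the plus strand at chr5:150952357-150952606.
Vdr: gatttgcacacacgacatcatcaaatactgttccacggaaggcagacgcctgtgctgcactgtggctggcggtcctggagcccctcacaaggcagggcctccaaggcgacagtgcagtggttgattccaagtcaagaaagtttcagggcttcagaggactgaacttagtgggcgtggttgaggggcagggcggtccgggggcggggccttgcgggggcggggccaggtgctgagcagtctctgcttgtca
Slc8a1: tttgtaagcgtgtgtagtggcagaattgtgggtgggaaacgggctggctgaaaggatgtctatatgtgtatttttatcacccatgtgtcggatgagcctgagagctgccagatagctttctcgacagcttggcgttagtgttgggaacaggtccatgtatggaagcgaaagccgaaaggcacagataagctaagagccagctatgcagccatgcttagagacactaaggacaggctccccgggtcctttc
Kl: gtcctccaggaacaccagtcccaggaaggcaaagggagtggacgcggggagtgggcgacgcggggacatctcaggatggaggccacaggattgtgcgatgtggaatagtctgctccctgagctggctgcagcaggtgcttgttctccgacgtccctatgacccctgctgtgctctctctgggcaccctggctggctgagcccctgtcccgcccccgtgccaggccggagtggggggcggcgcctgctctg
The last sequence holds the single match of the motif search and is a stretch of 30 bases across the first Atp2b1 start at chr10:98914638-98914667 on the plus strand, with the match in capitals.
Atp2b1: cgcgggccgcgtCACGTGaccgcgcccagc

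RefSeq promoter windows of 300 bases (250 before and 50 after the start) were held for 9 of the 10 genes, with 2 windows for Atp2b1, and Calb1 had none. Both strands of these 10 windows were searched for the E-box CACGTG and the related CACGTT, which clock factors can bind, for the D-box TTACGTAA and its variant TTATGTAA, for the ROR and REV-ERB core TAGGTCA, and for the direct repeat of the vitamin D receptor. CACGTG occurred in 1 of the 10 windows, beginning 8 bases after the first Atp2b1 start, and in 7.15% of all 32851 windows of this length. The other searches found 0 matches in the 10 windows. Across all windows CACGTT occurred in 4.68%, TTACGTAA in 0.119%, TTATGTAA in 0.938%, TAGGTCA in 2.61% and the direct repeat in 0.0304%. A match is a description of letters in a window and not a binding site. The windows of these genes differed in composition, with 41% G and C in S100g, 50.7% in Slc8a1, 61.3% in Vdr, 67.3% in Kl and 79.3% in Atp2b1, against a median of 52.7% over all windows.

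In DCT/CNT, 5 of the 9 measured genes followed a 24 h cosine: Vdr, Slc8a1, Kl, Calb1 and Casr. Across all 18194 genes the same test called 6.57% (limma's moderated F test on the cosine and sine terms, Benjamini-Hochberg adjusted p under 0.05). The fitted peaks of the 5 genes fell between ZT 20 and ZT 0.113, in the late dark phase and at lights on, and 220 of all 1195 called genes (18.4%) peaked in that interval, which the 5 genes themselves set. Their amplitudes, the distance from fitted mean to fitted peak, ran from 0.17 to 0.52 log2 units. The entry channel gene Trpv6 and the transport genes S100g, Atp2b1 and Atp2b4 did not pass the test. In CCD only Calb1 of the 9 passed, where 2.47% of all genes did. The median amplitude of the 9 genes was 0.21 in DCT/CNT and 0.20 in CCD, and over all genes 0.13 in DCT/CNT and 0.10 in CCD.

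**Figure D2:**
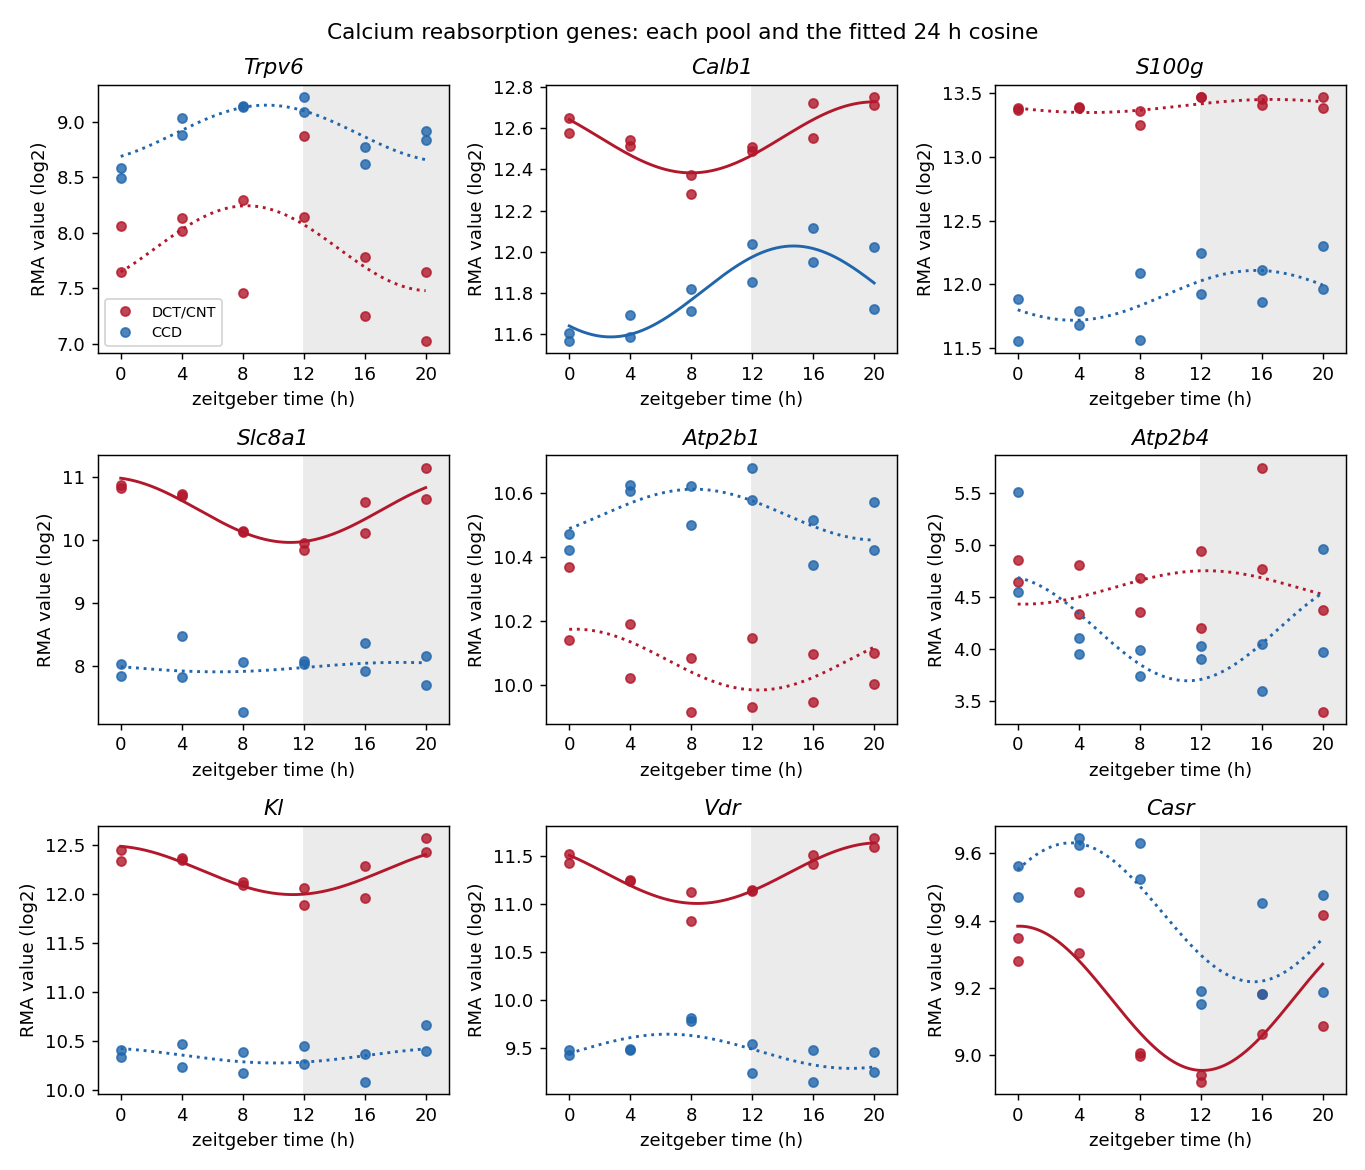
Log2 value (y axis, own range in each panel) of the 9 measured genes against zeitgeber time in hours (x axis), with points for the 2 pools of each segment and time, curves for the fitted 24 h cosine (solid where called, dotted where not) and the dark phase shaded. Vdr, Slc8a1 and Kl in DCT/CNT are highest at ZT20 and lowest at ZT8 or ZT12, while the CCD curves of Slc8a1 and Kl have amplitudes of 0.08.

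Vdr, the nuclear receptor for active vitamin D, had the smallest adjusted p of the 9 in DCT/CNT. Its DCT/CNT pools read 11.42 and 11.52 at ZT0, 11.25 and 11.23 at ZT4, 11.12 and 10.82 at ZT8, 11.14 and 11.13 at ZT12, 11.41 and 11.51 at ZT16, and 11.68 and 11.59 at ZT20. Both ZT20 pools were above the pools of every other time, and 1 ZT8 pool was the lowest of all. In order of the means the times ran ZT20, ZT0, ZT16, ZT4, ZT12 and ZT8, and only ZT0 and ZT16 overlapped among neighbours in that order. The fitted amplitude was 0.32 ± 0.06 (SE), a 1.55-fold swing between trough and peak, with the peak at ZT 20.4 ± 0.7 h (SE) and an adjusted p of 0.00453.

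In CCD, the same Vdr probe set read 9.43 and 9.48 at ZT0, 9.48 and 9.50 at ZT4, 9.81 and 9.78 at ZT8, 9.54 and 9.24 at ZT12, 9.15 and 9.48 at ZT16, and 9.46 and 9.26 at ZT20. The highest pools were those of ZT8, the time at which DCT/CNT was lowest. The CCD amplitude was 0.18 ± 0.06 (SE) with a fitted peak at ZT 6.47, and it did not pass the test (adjusted p = 0.201). The difference between the 2 Vdr rhythms had an amplitude of 0.48 and an unadjusted p of 2.03e-05 by limma's moderated F test, but an adjusted p of 0.0879, so Vdr did not pass. Over all genes that comparison called 2 genes (0.011%), and 0 of the 9, of which 3 had an unadjusted p under 0.05 (Vdr, Calb1 and Slc8a1), as did 8.89% of all genes. Vdr passed it with an intensity trend and robust prior (adjusted p = 0.0209), with the mean of its 2 probe sets (0.0272) and without CCD ZT12 replicate 2 (0.0230).

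Slc8a1 encodes NCX1, the basolateral exchanger that moves calcium out of the cell against incoming sodium. In DCT/CNT its pools read 10.88 and 10.83 at ZT0, 10.70 and 10.74 at ZT4, 10.15 and 10.14 at ZT8, 9.96 and 9.85 at ZT12, 10.12 and 10.61 at ZT16, and 10.66 and 11.15 at ZT20. Both ZT12 pools lay below all others, and the 2 pools of a time were farthest apart at ZT16 and ZT20. The means ran in the order ZT20, ZT0, ZT4, ZT16, ZT8 and ZT12, in which ZT20 overlapped ZT0 and ZT16 overlapped ZT8. The fitted swing was the widest of the 5 called genes, 2.05-fold (amplitude 0.52 ± 0.11 (SE), adjusted p = 0.0150), and the fitted peak was at ZT 23.1 ± 0.8 h (SE). In CCD the pools ran from 7.27 to 8.48 with a median of 8.03, the highest and lowest times overlapped, and the amplitude of 0.08 ± 0.11 (SE) did not pass (adjusted p = 0.945). The rhythm difference between the segments had an unadjusted p of 0.0123 and an adjusted p of 0.456 by limma's moderated F test.

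Kl encodes klotho. Its DCT/CNT pools read 12.45 and 12.34 at ZT0, 12.34 and 12.37 at ZT4, 12.12 and 12.09 at ZT8, 12.06 and 11.89 at ZT12, 11.96 and 12.28 at ZT16, and 12.43 and 12.57 at ZT20. The ZT12 mean was the lowest and the ZT20 mean the highest, the same 2 extremes as for Slc8a1, and the pools of these times did not overlap. The order of the means was ZT20, ZT0, ZT4, ZT16, ZT8 and ZT12, and the only neighbours that did not overlap were ZT4 with ZT16 and ZT8 with ZT12. The amplitude was 0.25 ± 0.06 (SE), a 1.41-fold swing, with the peak at ZT 23.3 ± 0.9 h (SE) and an adjusted p of 0.0317. In CCD the pools ran from 10.08 to 10.67 with a median of 10.38, and the amplitude of 0.08 ± 0.06 (SE) did not pass (adjusted p = 0.80).

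Calb1 encodes calbindin-D28k, the cytosolic calcium carrier of the DCT and CNT, and was the only one of the 9 called in both segments. In DCT/CNT its pools read 12.65 and 12.58 at ZT0, 12.51 and 12.54 at ZT4, 12.37 and 12.28 at ZT8, 12.49 and 12.51 at ZT12, 12.55 and 12.73 at ZT16, and 12.75 and 12.71 at ZT20. In CCD they read 11.61 and 11.56 at ZT0, 11.59 and 11.69 at ZT4, 11.71 and 11.82 at ZT8, 12.04 and 11.85 at ZT12, 11.95 and 12.12 at ZT16, and 12.02 and 11.72 at ZT20. DCT/CNT was lowest at ZT8 and highest at ZT20, while CCD was lowest at ZT0 and highest at ZT16. In DCT/CNT the order ran ZT20, ZT16, ZT0, ZT4, ZT12 and ZT8, with ZT16 overlapping both of its neighbours. In CCD the order ran ZT16, ZT12, ZT20, ZT8, ZT4 and ZT0, and ZT8 with ZT4 was the only pair of neighbours that did not overlap. The amplitude in DCT/CNT was 0.17 ± 0.04 (SE) with a peak at ZT 20 ± 0.9 h (SE) and an adjusted p of 0.0381. In CCD it was 0.22 ± 0.04 (SE) with a peak at ZT 14.7 ± 0.7 h (SE) and an adjusted p of 0.0159. The rhythm difference had an unadjusted p of 0.00138, and after adjustment over all genes (0.380) it did not pass limma's test.

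Casr encodes the calcium-sensing receptor. Its DCT/CNT pools read 9.35 and 9.28 at ZT0, 9.30 and 9.48 at ZT4, 9.01 and 9.0 at ZT8, 8.94 and 8.92 at ZT12, 9.18 and 9.06 at ZT16, and 9.09 and 9.42 at ZT20. All 4 pools of ZT8 and ZT12 lay below the other 8. The order of the means was ZT4, ZT0, ZT20, ZT16, ZT8 and ZT12, with overlap between neighbours among the first 4. The amplitude was 0.21 ± 0.05 (SE), the peak was at ZT 0.113 ± 0.963 h (SE), and the adjusted p of 0.0452 was the closest to the threshold among the 5. In CCD the amplitude was also 0.21 ± 0.05 (SE), with the lowest mean again at ZT12 (pools 9.19 and 9.15) and a fitted peak at ZT 3.48, but the adjusted p was 0.0959 and all neighbours in the order of the means overlapped.

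The other 4 genes gave no called rhythm in either segment. Trpv6, the apical calcium channel gene, ranged in DCT/CNT from 7.02 to 8.87 with a median of 7.90, and the SD between its 2 pools was 0.29 to 0.59 at every time but ZT4 (0.09). Its fitted amplitude of 0.38 ± 0.13 (SE), with a peak at ZT 8.26, had an unadjusted p of 0.0278 and an adjusted p of 0.150 by limma's F test. It passed without DCT/CNT ZT8 replicate 1 (adjusted p = 0.0177) and in 1 of the 6 fits with a whole time left out (0.0471). S100g, which encodes calbindin-D9k, spanned only 13.25 to 13.47 in DCT/CNT, with an amplitude of 0.05 ± 0.06 (SE) and an adjusted p of 0.843, and 11.55 to 12.30 in CCD, with an amplitude of 0.20 ± 0.06 (SE) and an adjusted p of 0.244. Atp2b1, the plasma membrane calcium pump PMCA1, had amplitudes of 0.09 ± 0.05 in DCT/CNT and 0.08 ± 0.05 in CCD (SE, adjusted p = 0.359 and 0.684). Atp2b4, the pump PMCA4, averaged 4.60 in DCT/CNT and 4.20 in CCD, below the level that 95% of 80 olfactory and vomeronasal receptor probe sets stay under (5.46 in DCT/CNT and 4.95 in CCD), so its time course is that of a probe set with little or no specific signal.

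**Figure D3:**
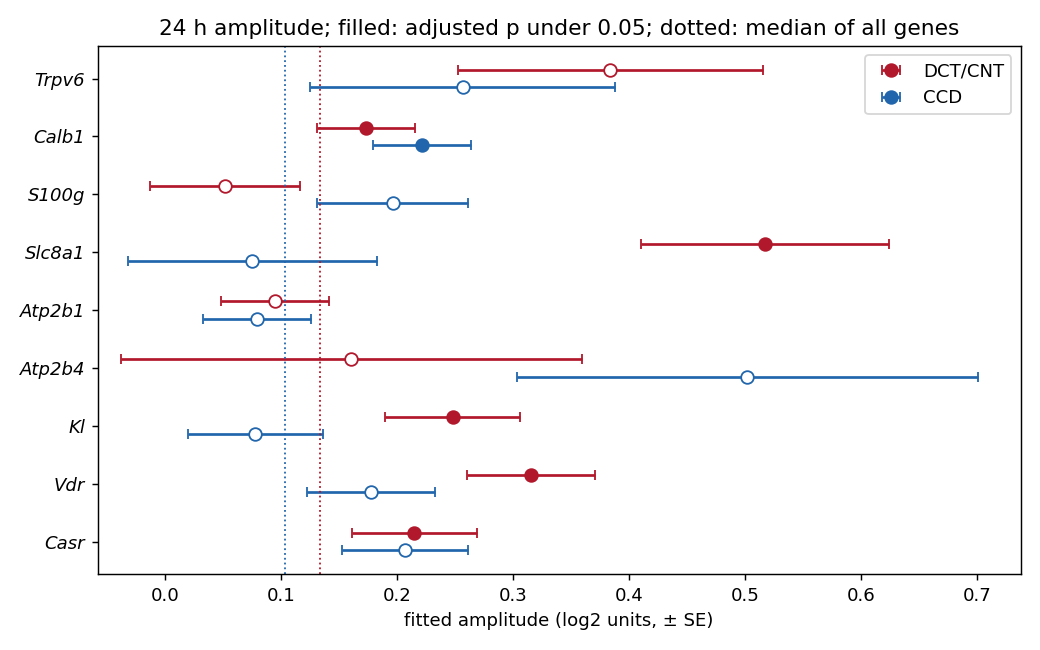
Fitted amplitude in log2 units with its SE for each of the 9 genes, DCT/CNT beside CCD, with filled symbols for adjusted p under 0.05 and dotted lines at the median amplitude of all genes (0.13 in DCT/CNT and 0.10 in CCD). Slc8a1 has the largest called amplitude (0.52 in DCT/CNT), and Calb1 is called in both segments.

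The calls differed in how much they rested on single arrays or times. With 1 of the 24 arrays left out, Vdr and Slc8a1 passed in all 24 fits, while Kl did not pass in 5, Calb1 in 8 and Casr in 17 of them. Kl did not pass without DCT/CNT ZT0 replicate 1 (adjusted p = 0.0559), ZT8 replicate 2 (0.0529), ZT12 replicate 2 (0.0909), ZT20 replicate 1 (0.0514) or ZT20 replicate 2 (0.0538). For Calb1 the DCT/CNT arrays were ZT0 replicate 1 (0.0559), ZT4 replicate 1 (0.0512), ZT8 replicate 1 (0.0688), ZT8 replicate 2 (0.119), ZT12 replicate 1 (0.0502), ZT16 replicate 2 (0.0638), ZT20 replicate 1 (0.080) and ZT20 replicate 2 (0.0639). Casr passed only without DCT/CNT ZT16 replicate 1 or ZT20 replicate 1, or without CCD ZT8 replicate 1, ZT12 replicate 2, ZT16 replicate 2 or either ZT20 replicate, and elsewhere its adjusted p went up to 0.0992 (without DCT/CNT ZT12 replicate 2). In CCD, Calb1 did not pass without ZT16 replicate 2 (0.0587). Across these fits 2 to 5 of the 9 passed in DCT/CNT, with 2 left without DCT/CNT ZT0 replicate 1, ZT8 replicate 2 or ZT20 replicate 2. Leaving out a whole time, which removes 4 arrays and a point of the curve, took the DCT/CNT call from Vdr for ZT20 (adjusted p = 0.0531). It took the call from Slc8a1 for ZT0 (0.0606), ZT12 (0.148) and ZT20 (0.0509), from Kl for 5 of the 6 times, and from Calb1 and Casr for all 6. With the F test over the 6 group means in place of a cosine, 0 of the 9 passed in DCT/CNT, where Vdr had an adjusted p of 0.0533 and Slc8a1 of 0.117. That test called 450 of all genes.

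The DCT list was low in DCT/CNT at ZT8, the time of the Vdr and Calb1 minima. The intercalated cell list was highest in both DCT/CNT pools of ZT8 (11.65 and 11.64) and had its lowest mean at ZT20 (11.40). A 6-gene smooth muscle and fibroblast list was highest in both DCT/CNT pools of ZT20 (7.40 and 7.71), the time of the highest means of Vdr, Slc8a1, Kl and Calb1, with all other DCT/CNT pools between 6.70 and 7.32. The part of these last 2 lists in the rhythms was not tested. With the centred mean of the DCT list as a covariate, Vdr (amplitude 0.31, adjusted p = 0.0102), Slc8a1 (0.50, 0.0210) and Kl (0.24, 0.0395) still passed, and Calb1 (0.15, 0.0709) and Casr (0.21, 0.0564) did not. The proximal tubule list was highest in both DCT/CNT pools of ZT12 (8.49 and 8.55), the time of the lowest Slc8a1 and Kl means. With the proximal tubule and thick ascending limb lists as covariates, Vdr (0.30, 0.0123), Slc8a1 (0.48, 0.0351) and Casr (0.26, 0.0494) passed, and Kl (0.26, 0.0579) and Calb1 (0.16, 0.0819) did not. With these covariates Calb1 also lost its call in CCD (adjusted p = 0.0773). Some list genes were themselves called in DCT/CNT, where 6.57% of all genes were. These were 2 of 8 intercalated cell genes (Slc4a9 and Aqp6), 1 of 14 proximal tubule genes (Pck1) and 1 of 4 DCT genes (Trpm6). A change in cell content and a change in RNA per cell cannot be told apart in these lists either.

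Several of the genes had further probe sets, fitted together with all 34958 single-symbol probe sets. In that larger table the main probe sets of Calb1 and Casr had adjusted p of 0.0510 and 0.0566 in DCT/CNT. The second Vdr probe set (1418175_at) gave an amplitude of 0.36 ± 0.07 (SE) with a peak at ZT 21.8 in DCT/CNT and an adjusted p of 0.00710, and its CCD peak was at ZT 4.85. Slc8a1 probe sets 1440201_at and 1437675_at gave amplitudes of 0.59 and 0.58 with peaks at ZT 0.315 and ZT 0.258, and both passed (adjusted p = 0.0184 and 0.0157). The remaining Slc8a1 probe set (1420210_at) averaged 2.37 in DCT/CNT and 2.38 in CCD, below the receptor level, and showed no rhythm.

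For Calb1, the probe sets 1456934_at and 1448738_at also peaked at about the same times as the main one in each segment. They peaked at ZT 20.4 and ZT 20.8 in DCT/CNT and at ZT 13.5 and ZT 13.2 in CCD. Their amplitudes were 0.17 and 0.35 in DCT/CNT and 0.28 and 0.40 in CCD, against 0.17 and 0.22 for the main probe set. Both passed in CCD (adjusted p = 0.00682 and 0.0389), and 1448738_at alone passed in DCT/CNT (0.0414, against 0.0801 for 1456934_at). The remaining Calb1 probe set (1458836_at) lay below the receptor level in both segments. The second Kl probe set (1451892_at) had a larger amplitude in DCT/CNT (0.37 ± 0.11, SE) that did not pass (adjusted p = 0.107), and the second Casr probe set (1449882_a_at) had an amplitude of 0.11 ± 0.11 (SE) there and did not pass (0.754). Neither of the other 2 Atp2b1 probe sets passed in either segment.

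**Figure D4:**
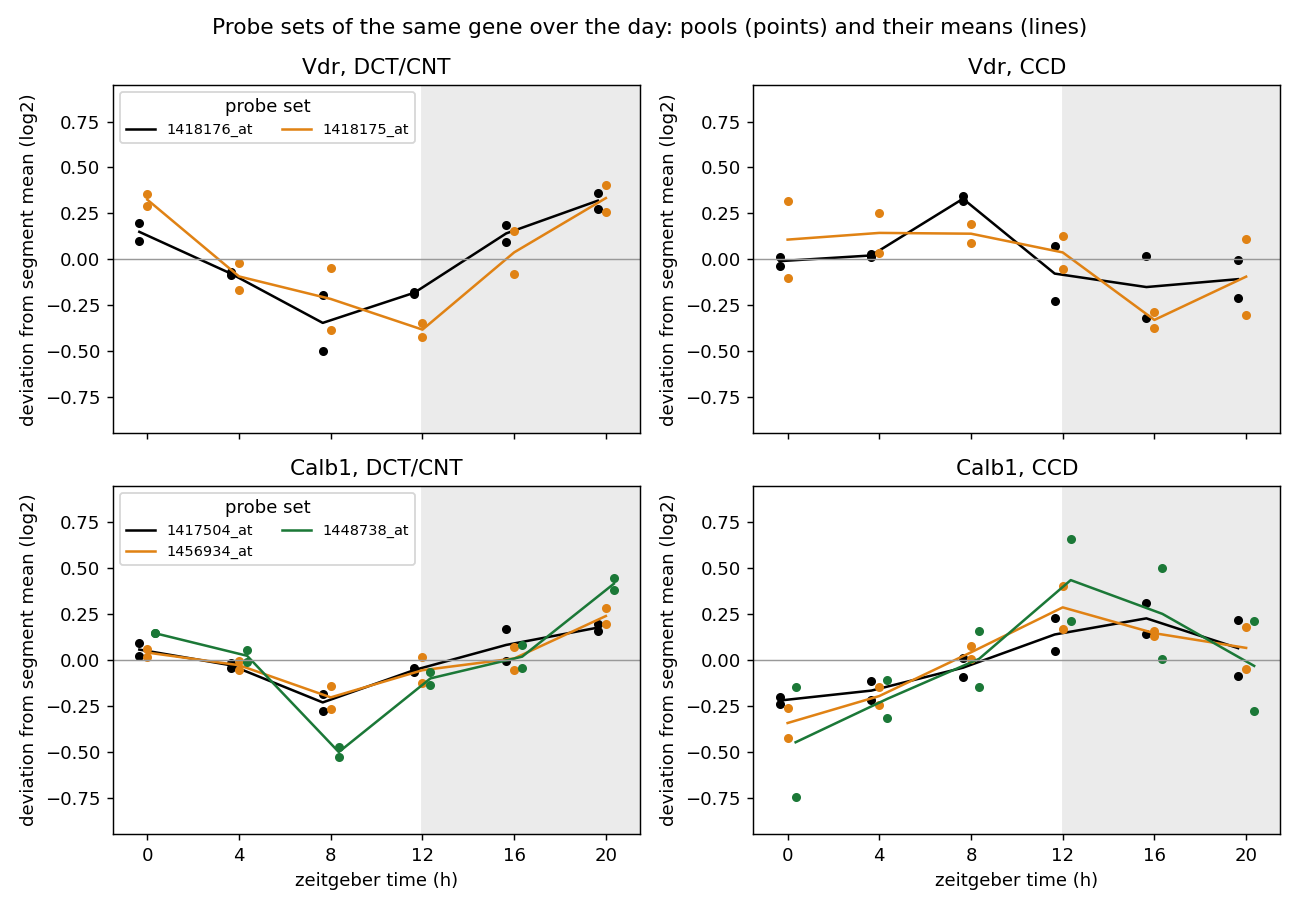
Deviation of the log2 value from the probe set's mean in the segment (y axis) against zeitgeber time in hours (x axis, points shifted slightly sideways) for the probe sets of Vdr and Calb1 that are above the receptor level, with points for pools, lines for group means and the dark phase shaded. In DCT/CNT all 5 probe sets are high at ZT20 and low at ZT8 or ZT12, and in CCD the 3 Calb1 probe sets are lowest at ZT0.

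Between the segments, averaged over the 6 times, 6 of the 9 genes were higher in DCT/CNT and 3 were lower, by limma's moderated test in the model of 12 group means. Over all genes, 30.4% were higher and 47% lower in DCT/CNT in the deposited values, and the median gene differed by -0.13. That shift was 0.08, 0.04 and 0.03 after equal array medians, quantile and cyclic loess normalisation, and the share of called genes that were higher changed from 39.2% to 56.9%, 54.8% and 54.4%. Differences are therefore also given relative to the median gene. The 12 pools of DCT/CNT did not overlap the 12 pools of CCD for 6 of the 9 genes (Calb1, S100g, Slc8a1, Atp2b1, Kl and Vdr), against 27.8% of all genes.

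Slc8a1 had the largest segment difference of the 9. Its DCT/CNT pools ran from 9.85 to 11.15 (median 10.63), against 7.27 to 8.48 (median 8.03) in CCD. The difference was 2.50 ± 0.11 (SE), or 5.66-fold (adjusted p = 2.33e-11), and 2.63 relative to the median gene. By time it ran from 3.60-fold at ZT12 to 7.87-fold at ZT20.

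The 2 hormone-related genes Kl and Vdr came next. Kl averaged 12.24 ± 0.21 in DCT/CNT and 10.35 ± 0.15 in CCD (SD, n = 12 each), a difference of 1.89 ± 0.06 (SE), or 3.70-fold (adjusted p = 8.34e-13) and 2.01 relative to the median gene. Vdr averaged 11.32 ± 0.25 in DCT/CNT and 9.47 ± 0.20 in CCD, a difference of 1.85 ± 0.05 (SE), or 3.61-fold (adjusted p = 4.26e-13) and 1.98 relative to the median gene. The Vdr difference was smallest at ZT8 (2.26-fold) and largest at ZT20 (4.85-fold), and the Kl difference ran from 3.07-fold at ZT12 to 4.05-fold at ZT0.

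Both calbindin genes were higher in DCT/CNT. S100g averaged 13.40 ± 0.06 in DCT/CNT and 11.91 ± 0.24 in CCD, a difference of 1.49 ± 0.07 (SE), or 2.81-fold (adjusted p = 3.98e-11). Calb1 averaged 12.56 ± 0.14 in DCT/CNT and 11.81 ± 0.19 in CCD, a difference of 0.75 ± 0.05 (SE), or 1.68-fold (adjusted p = 7.56e-10). Relative to the median gene these were 1.61 and 0.88. The Calb1 difference was 2.04-fold at ZT0 and 1.47-fold at ZT12, and its probe sets 1456934_at and 1448738_at gave larger differences of 1.24 and 2.05.

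Trpv6 was lower in DCT/CNT. Its pools ran from 7.02 to 8.87 (median 7.90) in DCT/CNT, against 8.50 to 9.23 (median 8.90) in CCD, so the segments overlapped. The difference was -1.04 ± 0.11 (SE), or 2.05-fold lower in DCT/CNT (adjusted p = 5.28e-07), and -0.91 relative to the median gene, with -0.65 at ZT12 and -1.54 at ZT20. Under the 4 scalings it lay between -1.04 and -0.59.

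The differences of the main probe sets of Atp2b1, Casr and Atp2b4 were small and moved with the scaling of the arrays. Atp2b1 averaged 10.08 ± 0.13 in DCT/CNT and 10.53 ± 0.10 in CCD, a difference of -0.45 ± 0.05 (SE), and the difference was -0.00086 after quantile normalisation (adjusted p = 0.988). Its probe sets 1452969_at and 1428937_at gave -0.75 ± 0.12 and -0.36 ± 0.06 (SE) in the deposited values. Casr averaged 9.17 ± 0.19 in DCT/CNT and 9.42 ± 0.19 in CCD, a difference of -0.26 ± 0.05 (SE) that turned to 0.20 after quantile and 0.21 after cyclic loess normalisation. The second Casr probe set (1449882_a_at) gave a larger difference of -0.75 ± 0.11 (SE) in the deposited values. Atp2b4 differed by 0.39 ± 0.17 (SE, adjusted p = 0.0434), with neither segment above the receptor level, and the call was lost in 15 of the 24 fits with 1 array left out. The receptor level was itself higher in DCT/CNT (5.46, against 4.95 in CCD).

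**Figure D5:**
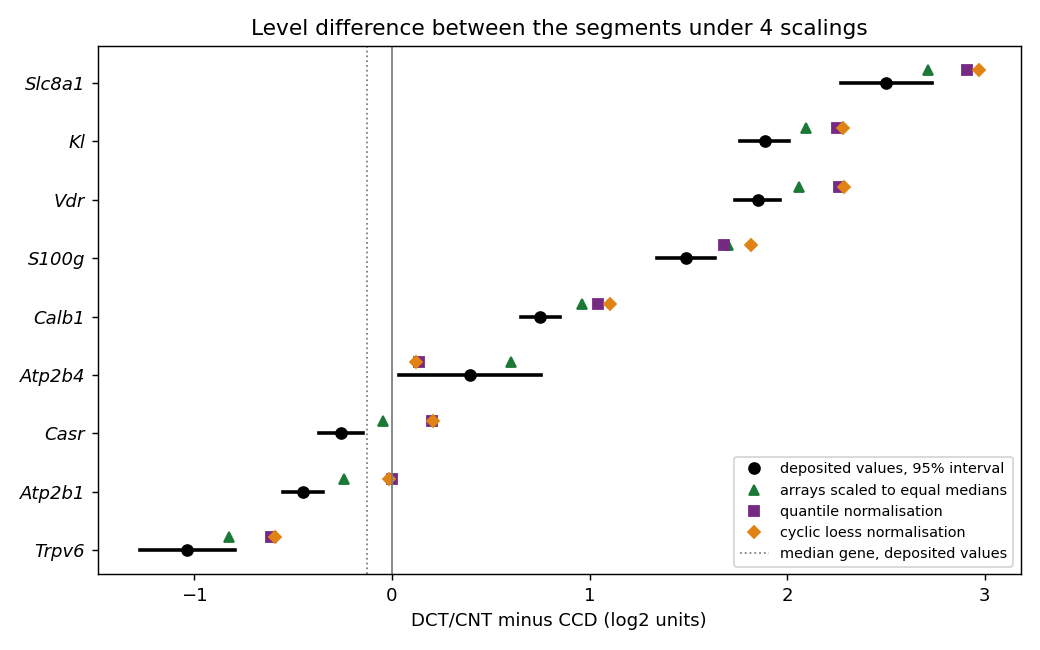
Difference in log2 value, DCT/CNT minus CCD, averaged over the 6 times, for each of the 9 genes under each of the 4 array scalings, with 95% intervals for the deposited values and a dotted line at the median gene (-0.13). Slc8a1, Kl, Vdr, S100g and Calb1 stay above 0 and Trpv6 below 0 under all 4, while Casr changes sign.

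The principal and intercalated cell lists were lower in DCT/CNT, with array means of 10.78 to 10.99 in DCT/CNT against 12.08 to 12.34 in CCD for the principal cell list, and 11.34 to 11.65 in DCT/CNT against 11.84 to 12.10 in CCD for the intercalated cell list. The smooth muscle and fibroblast list was higher in DCT/CNT, with array means of 6.70 to 7.71 (median 7.20) in DCT/CNT against 6.13 to 6.87 (median 6.36) in CCD, and 5 of its 6 genes were called higher. The part of these 3 lists in the segment differences of the calcium genes was not tested. With the DCT list centred within segments as a covariate, all 9 level calls held. Centring removes the gap of that list between the segments, so this fit could not change the level differences themselves. The part of the DCT list in them was thus not tested. With the proximal tubule and thick ascending limb lists as covariates, 7 of the 9 held, among them Slc8a1, Kl, Vdr, S100g, Calb1 and Trpv6.

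Other genes of calcium handling were taken from 5 lists with 41 genes, of which 36 were measured. In DCT/CNT 3 of the 36 passed the rhythm test, against 6.57% of all genes. There 9 of the 36 had an unadjusted p under 0.05 by limma's F test (25%), near the 24.5% of all genes. In CCD 0 of the 36 passed, while 8 had an unadjusted p under 0.05 by the same test (22.2%, against 14.2% of all genes). The rhythm difference called 0 of the 36, and 3 had an unadjusted p under 0.05 (8.33%, against 8.89% of all genes). The 3 genes that passed in DCT/CNT were among the 11 measured TRPV5 partners and regulators. Slc9a3r2, the scaffold NHERF2, had an amplitude of 0.23 ± 0.05 (SE) and a peak at ZT 18.3 (adjusted p = 0.0197). Anxa2, which with S100a10 helps to bring TRPV5 to the membrane, had an amplitude of 0.29 ± 0.07 (SE) and a peak at ZT 17.6 (0.0278). Wnk4, a kinase that regulates DCT salt transport and TRPV5, had an amplitude of 0.23 ± 0.05 (SE) and a peak at ZT 21.9 (0.0327). None of the 3 passed with the F test over group means (adjusted p = 0.0965 for Slc9a3r2, 0.110 for Anxa2 and 0.101 for Wnk4) or with DCT/CNT fitted alone (0.083, 0.179 and 0.171). Slc9a3r2 and Anxa2 also did not pass with the proximal tubule and thick ascending limb covariates (0.0782 and 0.130), nor Slc9a3r2 and Wnk4 with array weights (0.0561 and 0.0647). With 1 array left out, Slc9a3r2 did not pass without DCT/CNT ZT8 replicate 2 (0.0597) or ZT20 replicate 2 (0.0531). Anxa2 did not pass without DCT/CNT ZT4 replicate 2 (0.057), ZT8 replicate 1 (0.0551), ZT8 replicate 2 (0.073), ZT16 replicate 1 (0.068), ZT16 replicate 2 (0.061) or ZT20 replicate 2 (0.0549). For Wnk4 the DCT/CNT arrays were ZT8 replicate 1 (0.0699), ZT8 replicate 2 (0.0908), ZT12 replicate 1 (0.0531), ZT12 replicate 2 (0.051) and ZT20 replicate 2 (0.078).

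In level, 12 of the 36 were higher in DCT/CNT, 18 lower and 6 not called, near the shares of all genes (30.4% higher and 47% lower), with a median difference of -0.16 against -0.13 for all genes. The counts of single lists below are read against the same shares. The list of TRPV5 partners and regulators had 4 higher and 6 lower of 11, and Anxa2 (-1.51 ± 0.07, SE) and Bspry (-0.93 ± 0.05) had the smallest adjusted p. The largest difference in that list was in the other direction, 2.50 ± 0.14 (SE) for Klk1, a kallikrein gene named after its values were seen. Bspry encodes a protein that binds TRPV5. Of the hormone and vitamin D list, 3 of 7 were higher and 3 lower. Pth1r, the receptor for parathyroid hormone, averaged 8.83 ± 0.66 in DCT/CNT and 6.73 ± 0.43 in CCD (SD, n = 12 each), or 4.28-fold higher (adjusted p = 4.65e-09), and its DCT/CNT amplitude of 0.66 ± 0.18 (SE) had an adjusted p of 0.0618. Cyp24a1, the enzyme that degrades active vitamin D and a known target of its receptor, was 2.33-fold higher (difference 1.22 ± 0.07, SE).

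The calcium sensing list had 1 higher and 5 lower of 7, with Arrb1, a beta-arrestin gene (-1.30 ± 0.06, SE), and Ap2s1, an adaptor subunit of receptor endocytosis (-1.19 ± 0.06), named for the smallest adjusted p. Other calcium extrusion genes had 4 higher and 1 lower of 5. Among them Slc8a2, a second sodium-calcium exchanger gene, differed by 0.55 ± 0.08 (SE) but averaged 4.90 in DCT/CNT and 4.35 in CCD, below the receptor level. The other higher genes of this list averaged 5.56 to 5.64 in DCT/CNT and 5.05 to 5.42 in CCD. They were thus close to the receptor level, which itself was higher in DCT/CNT (5.46, against 4.95 in CCD). The pump gene Atp2b2 differed by -0.34 ± 0.05 (SE), and this turned to 0.13 after quantile and 0.11 after cyclic loess normalisation. Calcium store and entry genes had 0 higher and 3 lower of 6. Itpr2, an inositol trisphosphate receptor gene, differed by -0.58 ± 0.04 (SE), and Atp2a2, the SERCA2 pump gene, by -0.16 ± 0.04, which turned to 0.21 after quantile normalisation.

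The genes whose profiles were most like those of the 5 rhythmic genes were found by Pearson's r over the 12 group means after each segment's mean was removed. These points share arrays and scaling, and the values are a description. Closest to Vdr were Rhbdd1 (r = 0.93), Tom1 (0.91) and Ntn3 (0.90). For Slc8a1 they were Inpp5a (0.94), Rfc2 (0.93) and Bace1 (0.93), and for Kl S100a14 (0.93), Dsel (0.93) and Wdr70 (0.91). Casr was followed most closely by Bola3 (0.95), Ociad1 (0.93) and Itga6 (0.93), and Calb1 by Ppara (0.91), Bicdl1 (0.88) and Ahctf1 (0.87). For the 4 other genes the highest r was 0.94 for Trpv6 (Cutal), 0.93 for S100g (Rapgef3), 0.89 for Atp2b1 (Atg4d) and 0.88 for Atp2b4 (Tmem71). None of the 9 calcium genes was among the 3 closest of another.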

How the data were processed

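Per the submitters' processing notes the values are from RMA; the authors deposited them as 1 table of log2 values for 45101 probe sets on 24 arrays, and a software version is not given in the sources used here. From 10 ng of total RNA per array, cDNA was amplified and biotin-labelled, per the labels' protocols. The deposited log2 values entered the fits unchanged, dim genes included. There is no read depth on arrays, so the number of arrays limits precision. Of the probe sets, 34958 named 1 gene symbol, 932 several and 9211 none, and 18194 genes were tested. A 24 h cosinor with a mean, cosine and sine term per segment was fitted to all arrays with limma 3.58.1 in R 4.3.3 (18 residual degrees of freedom). Segment levels were compared in a model of 12 group means. Benjamini-Hochberg adjustment ran across the 18194 genes, and an adjusted p under 0.05 was a call. The fits were tested on simulated data.

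The genes and lists were chosen with earlier results of these data known. Named genes were all calcium reabsorption genes, the 3 most alike to each, every listed pathway gene called in a rhythm test, and the 2 per list with the smallest adjusted p for level. Alternatives were other scalings, array weights, variance prior, dim filter, other probe sets, pool number as a block, marker covariates, another time model, each segment alone, and leaving out each array or time. No batch or date is given in the labels. Some listed genes were not analysed here.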

Additional observations from a re-analysis of the deposited data

How the results depend on the processing

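In the deposited values 5 calcium genes passed the rhythm test in DCT/CNT and 1 passed in CCD, and those counts depended on the time model and the arrays used; the cause was not tested. In DCT/CNT the count was 3 after quantile or cyclic loess normalisation, with the DCT list as covariate, and with the proximal tubule and thick ascending limb covariates (678 of all genes). It was 2 with array weights (788 of all genes) or the segment fitted alone (226), and 0 with the F test over group means (450). Without a time, which also leaves fewer arrays, it was 1 without ZT0 (659 of all genes), 2 without ZT4 (565), 3 without ZT8 (745), 1 without ZT12 (594), 3 without ZT16 (676) and 0 without ZT20 (788). Trpv6 was among the genes counted in 1 of these 6 fits. The lowest array weights were those of DCT/CNT ZT8 pool 1 (0.47) and ZT20 pool 1 (0.53). With 1 array left out the DCT/CNT count was 2 to 5, and 818 to 1329 of all genes.

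In CCD the count was 2 with array weights (846 of all genes), and 0 with the proximal tubule and thick ascending limb covariates, the F test over group means (117) or the segment fitted alone. It was 0 without ZT0 (156), ZT4 (180), ZT8 (132), ZT12 (181) or ZT16 (221), and 1 without ZT20 (255). An intensity trend and robust prior called 702 of all genes in CCD. With 1 array left out, 242 to 477 of all genes and 1 calcium gene were called. Casr passed in CCD with array weights (adjusted p = 0.0329) and without CCD ZT16 replicate 2 (0.0407).

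The rhythm difference, called for 2 of all genes and 0 calcium genes, was called for 1 calcium gene, Vdr, and 4 genes in all with the robust prior or the mean of all probe sets. It was called for 1 gene in all after quantile normalisation and without ZT0, ZT8, ZT12 or ZT20. With 1 array left out it was 2 to 4 of all genes and 0 to 1 calcium gene.

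For the level difference, leaving out 1 array gave 13762 to 14080 of all genes and 8 to 9 of the 9 calcium genes. Signs turned for Casr (0.20 after quantile, 0.21 after cyclic loess normalisation), Atp2b2 (0.13 and 0.11) and Atp2a2 (0.21 and 0.22, 0.045 with equal array medians, and 0.034 with the mean of probe sets). The dim Slc8a1 probe set 1420210_at gave a level difference of -0.0046 and an amplitude of 0.042 with an opposite phase. Same-numbered pools of DCT/CNT and CCD shared little deviation over genes (r from -0.03 to 0.09 over 6 times, none above 0.1). That cannot show whether these pools hold the same animals. With pool number as a block, 4 calcium genes passed in DCT/CNT (Casr did not, adjusted p = 0.0544) and 1 in CCD.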

Other observations

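The segment difference at single times is given here as a description, for the smallest and largest of the 6 times. It was 2.26-fold (ZT8) and 4.85-fold (ZT20) for Vdr, 3.60-fold (ZT12) and 7.87-fold (ZT20) for Slc8a1, and 1.47-fold (ZT12) and 2.04-fold (ZT0) for Calb1, each higher in DCT/CNT, and 1.57-fold (ZT12) and 2.91-fold (ZT20) lower in DCT/CNT for Trpv6. A change of these differences over the day was not called for Vdr, Slc8a1, Calb1 or Trpv6 by limma's F test (adjusted p = 0.0879, 0.456, 0.380 and 0.918). The fitted peaks of the 2 Vdr probe sets were at ZT 20.4 and ZT 21.8 in DCT/CNT and at ZT 6.47 and ZT 4.85 in CCD, where neither rhythm passed (adjusted p = 0.201, and 0.214 in the fit of all probe sets).

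Trpm6, the apical magnesium channel gene of the DCT and a member of the DCT list, had an amplitude of 0.59 in DCT/CNT with an adjusted p of 0.042 by limma's F test. The other 3 measured genes of the DCT list did not pass, with adjusted p of 0.967 for Slc12a3, 0.497 for Pvalb and 0.976 for Emx1.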
